A study of Homo sapiens with 16 samples.

Results

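This report describes the baseline expression of 4 basal-like and 4 claudin-low breast cancer cell lines in the DMSO vehicle, which make up 8 of the 16 libraries of the series. The basal-like lines were HCC1143, HCC1395, HCC70 and MDA-MB-468, and the claudin-low lines were HCC38, MDA-MB-157 and MDA-MB-231 along with MDA-MB-436. The libraries were chosen by their vehicle label and by the subtype of the line, and no measured value entered the choice. All are established human lines from a cell bank, used between passages 5 and 20, and each was derived from a single tumor, so a line stands for 1 person's cancer rather than for a subtype. Cells received DMSO for 6 h in 5% serum, and the labels name DMEM or RPMI alike for every line. The other 8 libraries hold the same lines after topsentinol L trisulfate (TLT), a sulfated sterol from a marine sponge, and are used here only as a second measurement of each line.

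Basal-like breast cancers carry keratins and cell junctions of the basal layer of an epithelium, whereas claudin-low cancers are known for weak tight junctions, little E-cadherin and a mesenchymal gene program. Tight junctions are strands of claudins and occludin that seal neighbouring cells, adherens junctions hold cells together through cadherins, and desmosomes tie the keratin filaments of neighbouring cells to one another. Transcription factors of the ZEB, SNAI and TWIST families repress such epithelial genes in the epithelial-mesenchymal transition (EMT), and GRHL, OVOL and the splicing factor ESRP1 act on the epithelial side. Claudins, CDH1 and EPCAM are among the genes by which the claudin-low subtype is usually recognized, so their direction here is not independent evidence about the subtype.

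Values are gene estimates that the authors scaled within each library to an upper quartile near 1000. The 8 libraries were estimated to hold between 12.2 and 18.8 M reads, judged from the steps between low values, and 3 reads corresponded to values between 2.43 and 3.77. Per the column names, MDA-MB lines ran in lane 1 and HCC lines in lane 2, so lane 1 held 1 basal-like and 3 claudin-low lines and lane 2 held 3 basal-like lines and 1 claudin-low line. Subtype and lane therefore overlap in part, and differences within a lane are given for the main genes and lists. Each such difference sets 1 line against 3 others, so lane and line cannot be told apart in it. Differences are basal-like minus claudin-low on the log2(value + 1) scale, which understates the change of genes with low values. They were tested with limma over 14378 genes with Benjamini-Hochberg adjustment at 0.05. There was 1 library per line, so p-values measure the spread between lines. Libraries carried no strand, and reads of overlapping genes cannot be told apart.

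One line went against its label. HCC1395, labelled basal-like, correlated with the other basal-like lines at an r of 0.731 to 0.793 across genes and with the claudin-low lines at 0.781 to 0.840, and its nearest library was MDA-MB-436. MDA-MB-157 and MDA-MB-436 in turn were nearest to HCC1395, at 0.817 and 0.840, while HCC1143, HCC70 and MDA-MB-468 were each nearest to another of these 3 lines. On the first principal component, with 33.1% of the variance, these 3 lines scored 79.0, 170 and 112, whereas HCC1395 scored −49.4, next to the claudin-low lines at −101 to −54.9. Each library correlated with the TLT library of its own line at 0.962 to 0.983, and HCC1395 at 0.983. Genes are not independent, and no p-value is given for these correlations, which the matrix of correlations shows in full. HCC1395 was kept under its label, and results are given with and without it. Setting it apart was decided after its values were seen. Adjusted p and passes without it therefore describe the other lines and are no test of subtype.

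**Figure D1:**
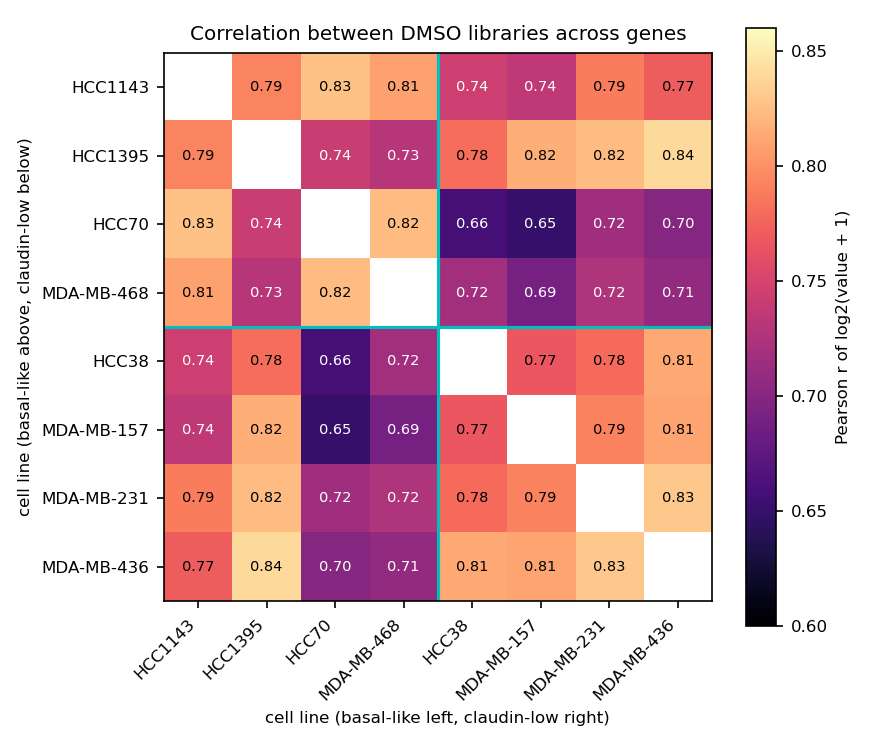
Pearson r of log2(value + 1) across the tested genes between each pair of DMSO libraries, with basal-like lines above and left of the turquoise lines and claudin-low lines below and right. HCC1395 reached 0.84 with MDA-MB-436, whereas HCC70 reached only 0.65 with MDA-MB-157.

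The defining markers were checked in each line. KRT5 and KRT14, keratins of basal epithelial cells, stood above the claudin-low lines in all 4 basal-like lines, and HCC1395 had the highest KRT14 value of the 8. KRT17 and EGFR, further basal-like markers, overlapped between the groups through HCC1395. The mesenchymal markers VIM and ZEB1 overlapped as well, as described further on. SOX10, a neural crest factor often seen in basal-like tumors, was at most 1.86 in any line. Estrogen receptor ESR1 was at most 68.9, in MDA-MB-468. CDH1 and EPCAM were at most 26.0 and 56.9 in the claudin-low lines, but also only 14.2 each in HCC1395. Of 12 leukocyte and blood markers, 7 lay under 10 in every line, among them PTPRC and CD3E, and CD2 and HBB were at 0 throughout. The summed level of the 12 ranged from 43.5 to 932 in basal-like lines and from 34.3 to 318 in claudin-low lines, with CD14 at 866 in HCC70, and 4 of the 12 were expressed enough to be tested. The summed level of 8 fibroblast and stroma markers ranged from 17.0 to 1606 in basal-like lines and from 82.8 to 10602 in claudin-low lines, and the part of either sum in the differences was not tested.

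Across all genes, 9 passed the threshold, which is 0.0626% of those tested. Of these, 2 were higher in basal-like lines (0.0139%) and 7 were lower (0.0487%). Every basal-like value lay above every claudin-low value for 288 genes (2.0%) and below for 459 (3.19%). The median difference over all genes was −0.12, with 6190 genes positive and 8188 negative. These counts and shares are the background for the list counts given below. At an unadjusted p under 0.05 there were 1454 genes (10.1%). Without HCC1395, 218 of 14404 genes passed (1.51%), of which 134 were higher (0.93%) and 84 lower (0.583%), and all 9 genes were among them. That fit follows from a choice made after the values were seen. With a term for lane no gene passed, at a lowest adjusted p of 0.0796 in limma and 1248 genes at an unadjusted p under 0.05. The 2 higher and 7 lower genes are plotted by line.

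**Figure D2:**
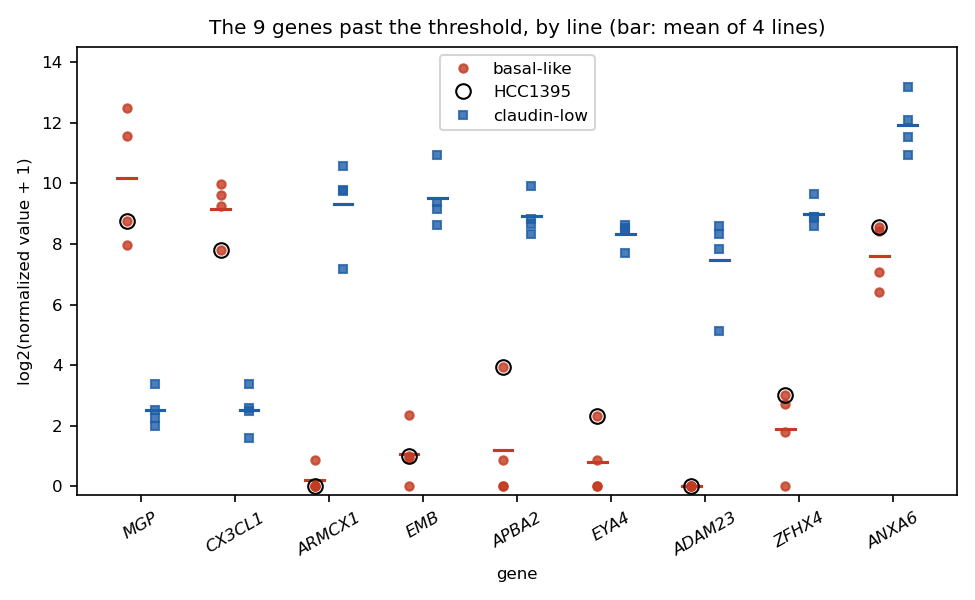
log2(value + 1) of the 9 genes past the threshold, with basal-like lines as red circles left of claudin-low lines as blue squares, group means as bars and HCC1395 ringed in black. The groups do not overlap for any of the 9. HCC1395 was counted as basal-like when these genes were called, so its place with those lines follows from their choice.

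Both genes that were higher in basal-like lines encode secreted or shed proteins. CX3CL1, or fractalkine, is a membrane-bound chemokine that can be shed (chromosome 16, 57406389 to 57418956, GRCh37). Its value was 606, 219, 786 and 1001 in HCC1143, HCC1395, HCC70 and MDA-MB-468, against 9.46, 4.65, 5.03 and 2.0 in HCC38, in MDA-MB-157, in MDA-MB-231 and in MDA-MB-436. All basal-like lines were thus far above the detection floor of 3 reads, and the claudin-low lines were close to it. The log2 difference was 6.64 ± 0.80 (SE, n = 4 each, limma adjusted p = 0.0201), and it was 7.74 in lane 1 and 5.50 in lane 2. In bulk RNA fewer cells with a transcript and less transcript per cell cannot be told apart.

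MGP, matrix Gla protein, is an inhibitor of calcification in cartilage and vessels (chromosome 12, 15033798 to 15038791). It measured 247, 433, 3004 and 5774 in the basal-like lines, in the same order, against 4.73, 9.29, 3.77 and 2.99 in the claudin-low lines. HCC70 and MDA-MB-468 were far above HCC1143 and HCC1395, and all 4 were clear of the claudin-low lines. The difference was 7.66 ± 1.03 (limma adjusted p = 0.0336), at 9.96 in lane 1 and 6.91 in lane 2.

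The lower genes were mostly at or near 0 in basal-like lines. ARMCX1, an armadillo repeat protein of the outer mitochondrial membrane (chromosome X, 100805530 to 100809683), was at 0 in HCC1143, HCC1395 and HCC70 and at 0.81 in MDA-MB-468, against 143, 883, 866 and 1520 in HCC38, in MDA-MB-157, in MDA-MB-231 and in MDA-MB-436. EMB, or embigin, an immunoglobulin-type membrane glycoprotein related to basigin (chromosome 5, 49692026 to 49739082), was 0.93, 1.01, 0 and 4.05 in the basal-like lines, against 1973, 391, 564 and 665 in the claudin-low lines. HCC38 stood lowest among claudin-low lines for ARMCX1 and highest for EMB, and neither gene overlapped between the groups. The differences were −9.11 ± 0.96 and −8.45 ± 0.88 (limma adjusted p = 0.0110 for each). ARMCX1 differed by −9.18 in lane 1 and −7.17 in lane 2, and EMB by −6.71 and −10.29.

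ADAM23, a disintegrin that lacks protease activity and takes part in adhesion of neurons (chromosome 2, 207308256 to 207485851), was listed at 0 in all 4 basal-like lines, against 322, 382, 33.9 and 225 in the claudin-low lines. Set against the floor of 3 reads per library, the claudin-low mean was at least 81.8-fold higher (limma adjusted p = 0.0378). MDA-MB-231 had the lowest of the claudin-low values and was still clear of that floor. The difference of ADAM23 was −7.17 in lane 1 and −8.33 in lane 2.

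EYA4, a transcriptional coactivator of the eyes absent family (chromosome 6, 133561652 to 133853266), was 0, 4.05, 0 and 0.81 in the basal-like lines, against 365, 350, 208 and 389 in the claudin-low lines. APBA2, an adaptor that binds the amyloid precursor protein (chromosome 15, 29129629 to 29410518), was 0, 14.2, 0 and 0.81 against 447, 321, 401 and 954. In both genes HCC1395 had the highest basal-like value, although it remained below every claudin-low line. The differences were −7.52 ± 0.90 (limma adjusted p = 0.0201) and −7.73 ± 1.05 (limma adjusted p = 0.0336). EYA4 differed by −7.40 in lane 1 and −7.74 in lane 2, and APBA2 by −8.10 and −7.50.

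ZFHX4, a large zinc finger and homeobox factor (chromosome 8, 77593474 to 77779517), was 5.58, 7.08, 0 and 2.43 in the basal-like lines, against 478, 794, 471 and 385 in the claudin-low lines. ANXA6, an annexin that binds membranes when calcium is present (chromosome 5, 150480267 to 150537376), was 83.6, 375, 134 and 340, against 1935, 4386, 9215 and 2925. ANXA6 was the exception among the lower genes in that every basal-like line expressed it clearly. The differences were −7.13 ± 0.88 (limma adjusted p = 0.0206) and −4.31 ± 0.60 (limma adjusted p = 0.0361). ZFHX4 differed by −7.26 in lane 1 and −6.99 in lane 2, and ANXA6 by −3.85 and −3.57. All 9 genes had the same sign in lane 1 and in lane 2, and their adjusted p with the lane term in limma was 0.0796 to 0.177. Without MDA-MB-157, or without MDA-MB-436, none passed. In the TLT libraries of the same lines, which are not independent of these, 8 of the 9 passed again and MGP did not (adjusted p = 0.0553).

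The genes next in line did not pass the threshold but separated the groups completely, and keratins led those with higher values in basal-like lines. KRT16 was 826, 186, 13939 and 1318 in the basal-like lines, against 14.8, 1.16, 3.77 and 9.98 in the claudin-low lines (limma adjusted p = 0.0675). KRT14 was 47.4, 2214, 1002 and 652 against 9.08, 1.16, 0 and 0 (adjusted p = 0.0768), and KRT6B was 1923, 219, 26352 and 1133 against 27.4, 1.16, 3.57 and 0 (adjusted p = 0.0788). HCC70 had by far the most KRT16 and KRT6B, whereas HCC1395 had the most KRT14 and the least KRT16 and KRT6B of the basal-like lines. KRT6A and KRT9 completed the keratins, and KRT9 was listed at 0 in all claudin-low lines and at 8.36 to 84.1 in basal-like lines, a mean at least 13.9-fold above the floor of 3 reads per library. The KRT6 genes, and KRT14, KRT16 and KRT17, are near-identical copies among which reads may have been split, so single members are uncertain.

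SERPINB5, or maspin, a serpin of epithelial cells, was 2231, 237, 1647 and 94.0 in the basal-like lines, against 9.46, 3.48, 1.26 and 2.0 in the claudin-low lines (limma adjusted p = 0.0706). DDR1, a receptor tyrosine kinase for collagen, was 5584, 1099, 5713 and 7153 against 810, 631, 209 and 410 (adjusted p = 0.146). Unlike the keratins, DDR1 was expressed in every line and differed in degree, by 3.12 ± 0.63 on the log2 scale. EMP2, LYPD3, NTN4, SYT7 and PTPN6 also separated the groups, with differences of 1.90, 4.37, 2.75, 3.71 and 4.73 and limma adjusted p of 0.0900 to 0.177. Without HCC1395, KRT16, KRT14, KRT6B, KRT6A, SERPINB5, EMP2, LYPD3, NTN4 and DDR1 passed, whereas SYT7, PTPN6 and KRT9 did not.

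On the other side stood 2 genes at a limma adjusted p of 0.0501. CRISPLD1, a secreted cysteine-rich protein, was 0, 6.07, 0 and 0.81 in the basal-like lines, against 423, 331, 155 and 98.8 in the claudin-low lines. HOXD8 is described with its cluster further on. WASF3, a member of the WAVE family that promotes actin branching, was 6.51, 44.5, 18.7 and 44.6 against 744, 362, 534 and 667 (adjusted p = 0.0675). EMX2, a homeobox factor, and SNAP91, a clathrin assembly protein of neurons, were at 0 in all basal-like lines, and their claudin-low means were at least 30.8-fold and 27.7-fold above the floor. MOXD1 and TRIM68 had differences of −6.59 and −7.11 and adjusted p of 0.0581 and 0.0947. Each of these genes also passed without HCC1395.

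CLDN1, CLDN3, CLDN4 and CLDN7 overlapped between the labelled groups, and HCC1395 had little of each. CLDN7 was 2489, 3655 and 2341 in HCC1143, HCC70 and MDA-MB-468 and 8.09 in HCC1395, against 5.91, 6.97, 107 and 5.99 in the claudin-low lines. CLDN4 was 2001, 3523 and 1513 in the same 3 basal-like lines and 16.2 in HCC1395, against 5.91, 22.1, 574 and 21.2. MDA-MB-231 thus had more of both than any other claudin-low line, and HCC1395 lay within the claudin-low range. The differences were 5.54 ± 1.89 for CLDN7 (limma adjusted p = 0.399) and 4.12 ± 1.84 for CLDN4 (adjusted p = 0.497), and without HCC1395 they were 7.60 (adjusted p = 0.00641) and 5.87 (adjusted p = 0.0750). CLDN1 was 938, 2189 and 374 in the 3 lines and 8.09 in HCC1395, against 61.5, 15.1, 2.51 and 63.9, and passed only without HCC1395 (5.39, adjusted p = 0.0465). CLDN3 was uneven among basal-like lines, with 289, 22.6 and 361 in HCC1143, HCC70 and MDA-MB-468 and 0 in HCC1395, against 5.91, 4.65, 11.5 and 58.7. The differences in lane 1 and lane 2 were 7.01 and 5.98 for CLDN7, 4.51 and 6.16 for CLDN4, 4.61 and 2.09 for CLDN1 and 4.49 and 1.46 for CLDN3.

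Of 21 claudin genes, 11 were expressed enough to be tested and none passed. Their median difference was 1.60, beside −0.12 over all genes, and 3.37 without HCC1395, where CLDN1 and CLDN7 passed. CLDN12, which is widely expressed, had no such pattern, at 912, 1047, 1891 and 440 in basal-like lines against 891, 1141, 1151 and 1610 in claudin-low lines. CLDN11 had more in MDA-MB-157, at 41.8, than in any basal-like line. CLDN9 was the only 1 of the 11 tested claudins whose groups did not overlap, beside 2.0% of all genes in that direction. It was 182, 13.1, 50.2 and 33.2 in basal-like lines against 1.18, 6.97, 5.03 and 6.40 in claudin-low lines (limma adjusted p = 0.399).

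The partners of claudins followed the same order. Of 16 tested tight junction partners, 15 had a positive difference and none passed, at a median of 1.87. Without HCC1395 the median was 3.09 and MARVELD2, MARVELD3, TJP3, F11R, LSR and CRB3 passed, where 0.93% of all genes passed as higher. CRB3, a membrane protein of the Crumbs polarity complex, was 321, 172 and 286 in HCC1143, HCC70 and MDA-MB-468 and 2.02 in HCC1395, against 4.73, 0, 1.26 and 2.99 in the claudin-low lines. OCLN, or occludin, was 860, 1054 and 559 and 20.2 in HCC1395, against 296, 34.4, 80.4 and 80.7. Occludin in HCC38 was therefore closer to basal-like than to the other claudin-low lines, and its difference was 3.18 in lane 1 and −0.15 in lane 2. TJP1, the scaffold ZO-1, was 3336, 1570, 2374 and 1836 in basal-like lines against 1704, 999, 1808 and 3350 in claudin-low lines, which overlapped.

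Among 11 adherens junction and epithelial adhesion genes all differences were positive, with a median of 2.56, and none passed. CDH1, or E-cadherin, was 5453, 15234 and 3134 in HCC1143, HCC70 and MDA-MB-468 and 14.2 in HCC1395, against 26.0, 1.16, 0 and 5.99 in the claudin-low lines. EPCAM, an epithelial adhesion molecule, was 8381, 2887 and 5523 and 14.2 in HCC1395, against 4.73, 9.29, 40.2 and 56.9. HCC1395 fell inside the claudin-low range for both, and the other basal-like lines were at 2887 or more. Their differences were 8.29 ± 2.03 (limma adjusted p = 0.287) and 5.95 ± 1.86 (adjusted p = 0.374), and without HCC1395 they were 10.47 and 8.04 (adjusted p = 0.00234 for each). CDH1 differed by 10.31 in lane 1 and 5.32 in lane 2, and EPCAM by 7.57 and 6.97. CDH3 and JUP passed with them without HCC1395.

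Desmosomal genes had a median difference of 3.02 over 11 tested, with all 11 positive and none past the threshold. PKP3, or plakophilin 3, was 1 of 2 whose groups were apart, where 2.0% of all genes were apart in that direction. It was 1112, 384, 1768 and 1425 in the basal-like lines against 21.3, 179, 187 and 332 in the claudin-low lines (limma adjusted p = 0.314). DSP, or desmoplakin, was 13569, 19751 and 14516 in HCC1143, HCC70 and MDA-MB-468 and 170 in HCC1395, against 4739, 1804, 2386 and 521. Desmoplakin was therefore retained in claudin-low lines at values above the upper quartile in 3 of 4, and HCC1395 had the least of the 8. DSP passed without HCC1395 (3.12, adjusted p = 0.0466), and with all lines its difference was 3.47 in lane 1 and −0.41 in lane 2. The medians of the claudin, tight junction, adhesion and desmosome lists were positive in both lanes, at 2.77 to 4.30 in lane 1 and 0.60 to 3.63 in lane 2. The junction genes are shown together with their regulators and keratins in the map of levels by line.

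**Figure D3:**
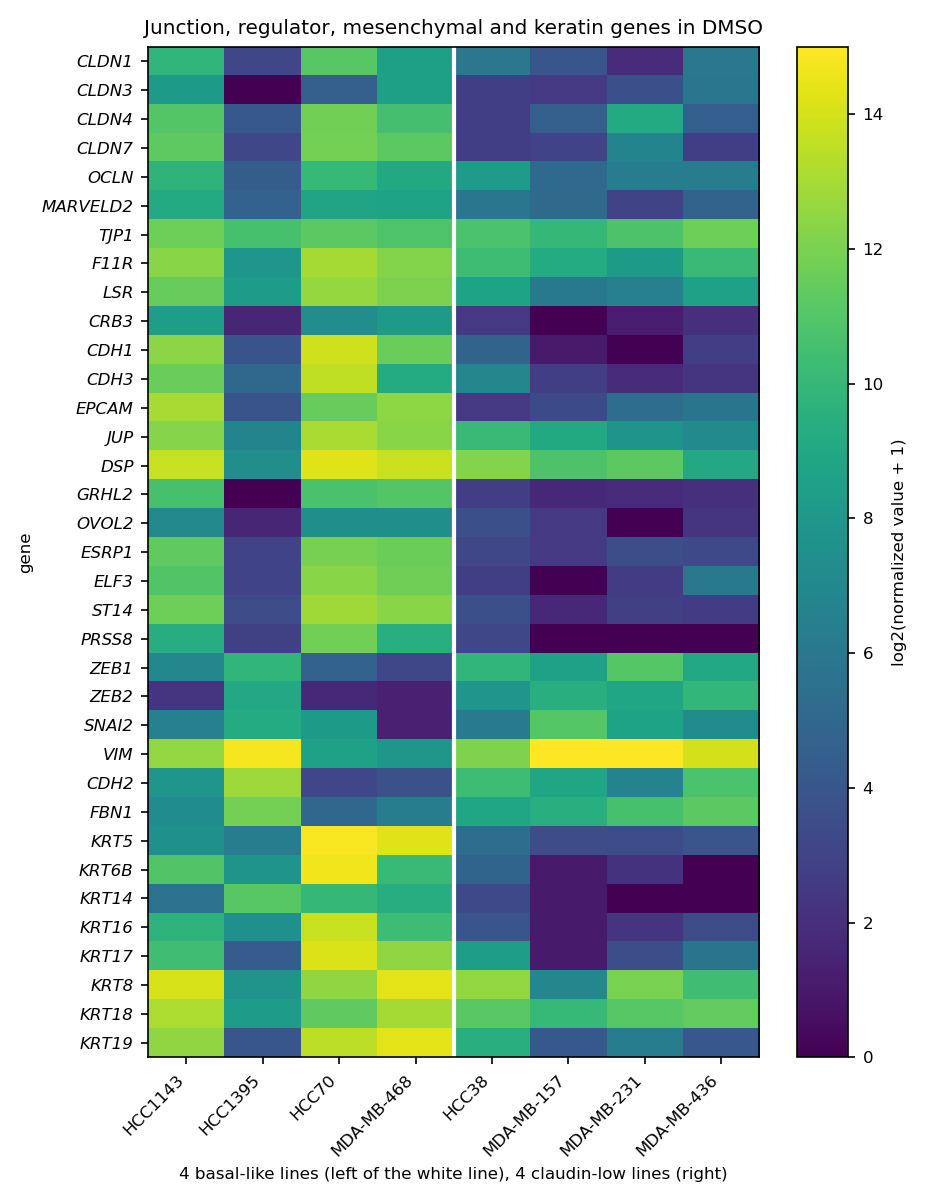
log2(value + 1) of junction, regulator, mesenchymal and keratin genes (rows) in each DMSO library (columns), with the 4 basal-like lines left of the white line and the 4 claudin-low lines right of it. HCC1395 has CDH1 at 14.2 and ZEB2 at 525, inside the claudin-low ranges, but KRT14 at 2214, above all other lines.

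ZEB and SNAI factors bind the E-box CAGGTG, which reads CACCTG on the other strand, and promoters of 4 genes named above are shown. CRB3 and DSP were chosen as holding several copies, and CLDN7 and CLDN4 as claudins described above that hold none, as is also true of other junction genes such as JUP and LSR. The windows span 250 bases before to 50 after the start in RefSeq (GRCh38.p14), each matched once in GRCh37 at chr19:6464032-6464331 (plus strand) for CRB3, chr6:7541654-7541953 (plus) for DSP, chr17:7166483-7166782 (minus) for CLDN7 and chr7:73245076-73245375 (plus) for CLDN4. Capitals mark each E-box on either strand.
CRB3: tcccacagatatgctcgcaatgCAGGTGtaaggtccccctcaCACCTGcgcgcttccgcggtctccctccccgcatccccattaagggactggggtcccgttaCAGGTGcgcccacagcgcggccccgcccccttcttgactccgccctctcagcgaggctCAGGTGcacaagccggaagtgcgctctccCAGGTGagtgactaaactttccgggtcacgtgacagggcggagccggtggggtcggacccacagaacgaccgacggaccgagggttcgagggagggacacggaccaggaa
DSP: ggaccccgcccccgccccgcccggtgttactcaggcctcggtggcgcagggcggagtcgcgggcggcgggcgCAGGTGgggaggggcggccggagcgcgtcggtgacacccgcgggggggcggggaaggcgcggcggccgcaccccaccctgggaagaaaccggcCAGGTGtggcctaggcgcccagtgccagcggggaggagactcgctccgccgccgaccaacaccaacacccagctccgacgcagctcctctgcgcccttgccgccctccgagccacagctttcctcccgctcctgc
CLDN7: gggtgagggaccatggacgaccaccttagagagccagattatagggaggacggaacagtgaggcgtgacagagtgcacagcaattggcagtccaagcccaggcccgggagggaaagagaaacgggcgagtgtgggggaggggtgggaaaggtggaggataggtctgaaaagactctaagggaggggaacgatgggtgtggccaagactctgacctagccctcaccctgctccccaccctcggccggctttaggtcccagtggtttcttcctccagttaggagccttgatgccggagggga
CLDN4: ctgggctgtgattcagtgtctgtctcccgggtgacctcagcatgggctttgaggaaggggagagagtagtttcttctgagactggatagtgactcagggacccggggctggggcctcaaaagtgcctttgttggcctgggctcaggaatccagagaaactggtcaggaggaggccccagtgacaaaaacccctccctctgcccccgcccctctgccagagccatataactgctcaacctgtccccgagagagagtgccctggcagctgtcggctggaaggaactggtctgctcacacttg
CRB3 held 5 copies and DSP held 2, at 178 and 85 bases before the start, whereas CLDN7 and CLDN4 held none in this window. The motif occurred in 5 of 11 promoters of tight junction partners, 3 of 7 of desmosomal genes, 3 of 16 of claudins and 1 of 5 of adhesion genes, beside 20.6% of all 35116 promoters. A match is a description of the letters and not of binding.

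The regulators on the epithelial side had large differences. GRHL2, which maintains epithelial gene expression, was 1576, 1648 and 2009 in HCC1143, HCC70 and MDA-MB-468 and 0 in HCC1395, against 5.91, 2.32, 2.51 and 2.99 in the claudin-low lines. ESRP1, the epithelial splicing regulator, was 2569, 3884 and 3196 and 7.08 in HCC1395, against 8.27, 4.65, 11.3 and 8.98. These genes were close to an on and off pattern, with HCC1395 off. ST14, the membrane protease matriptase, was 3257, 7564 and 5130 and 10.1 in HCC1395, against 11.8, 2.32, 6.28 and 4.99, and its inhibitors SPINT1 and SPINT2 followed it. GRHL2 differed by 9.13 in lane 1 and 4.31 in lane 2, and ESRP1 by 8.50 and 5.54.

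Over 19 tested regulators all differences were positive at a median of 5.46, and none passed with all lines. Without HCC1395, which was set apart after its values were seen, the median was 7.08 and 11 passed, where 0.93% of all genes passed as higher. Among the 11 were GRHL2, OVOL1, ESRP1, ELF3, EHF, RAB25, ST14, PRSS8, SPINT1 and SPINT2. The limma adjusted p was 0.000688 for ESRP1 and ST14 and 0.00130 for GRHL2. OVOL2, a repressor of ZEB1, was 132, 178 and 176 and 2.02 in HCC1395, against 11.8, 4.65, 0 and 3.99 (adjusted p = 0.0512 without HCC1395). RAB25, a small GTPase of apical recycling, was the only 1 of the 19 whose groups were apart, beside 2.0% of all genes in that direction. HCC1395 at 5.06 was just above MDA-MB-231 at 5.03. Both values were near the floor of 3 reads, at 3.03 in HCC1395 and 3.77 in MDA-MB-231, so these 2 lines cannot be told apart. TP63 was at most 26.9 in any line and ELF5 at most 48.6, and neither was expressed enough to be tested.

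The EMT transcription factors ran the other way, with 9 of 9 tested below 0 at a median of −3.31, −5.82 in lane 1 and −2.10 in lane 2. ZEB2 was 3.72, 2.34 and 1.62 in HCC1143, HCC70 and MDA-MB-468 and 525 in HCC1395, against 225, 706, 469 and 958 in the claudin-low lines. ZEB1 was 120, 25.8 and 8.27 and 954 in HCC1395, against 951, 379, 2112 and 496. HCC1395 was inside the claudin-low range for both. The differences were −5.41 ± 1.55 for ZEB2 (limma adjusted p = 0.345) and −3.42 ± 1.28 for ZEB1 (adjusted p = 0.420), and both passed without HCC1395, at −7.23 (adjusted p = 0.00325) and −4.66 (adjusted p = 0.0388). In lane 1 and lane 2 they were −8.03 and −3.48 for ZEB2 and −6.31 and −2.71 for ZEB1.

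SNAI2 differed from the ZEB genes in that HCC70, a basal-like line, had 291 of it and HCC38, a claudin-low line, had 67.4. It was 90.1 in HCC1143, 605 in HCC1395 and 1.62 in MDA-MB-468, against 2105, 412 and 151 in MDA-MB-157, in MDA-MB-231 and in MDA-MB-436. Its difference was −7.60 in lane 1 and 1.89 in lane 2. TWIST1 was likewise present in HCC1143, at 165, as in HCC38, at 171, and PRRX1 was highest in HCC1395, at 993.

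Mesenchymal markers were spread more widely. VIM, or vimentin, was 6155, 382 and 246 in HCC1143, HCC70 and MDA-MB-468 and 28234 in HCC1395, against 4437, 72376, 61772 and 17054 in the claudin-low lines. Vimentin in HCC1143 was thus above that in HCC38, and only HCC70 and MDA-MB-468 were below every claudin-low line. Its difference was −3.58 ± 1.56 (limma adjusted p = 0.489). It was −7.42 in lane 1, where MDA-MB-468 was the only basal-like line, and −0.13 in lane 2, where HCC38 was the only claudin-low line. CDH2, or N-cadherin, was 235, 8.18 and 12.2 and 7064 in HCC1395, against 1288, 477, 104 and 1704, so that its mean was larger in basal-like lines, at 1830 against 893, while its log2 difference was −2.28, at −5.07 in lane 1 and −2.38 in lane 2.

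Of 20 tested mesenchymal markers, 18 had a negative difference at a median of −1.78, and of 16 collagens 15 did, at a median of −1.69, with none past the threshold. Over all genes 8188 of 14378 differences were negative. Without HCC1395 these medians were −3.35 and −2.86, and only FBN1, the microfibril protein fibrillin, passed (−3.81, limma adjusted p = 0.0306). The sign differed between lanes, with medians of −4.04 and −3.48 in lane 1 against 1.06 and 0.72 in lane 2. MDA-MB-468 was the only basal-like line of lane 1 and HCC38 the only claudin-low line of lane 2. Lane and line therefore cannot be told apart here. FN1, or fibronectin, reached 109520 in HCC1395, against 1345 to 15578 in claudin-low lines, and SPARC reached 122510 in MDA-MB-157, against 134 to 2819 in the other claudin-low lines. COL5A2 was the only 1 of the 16 collagens whose groups were apart, beside 3.19% of all genes in that direction. It was 28.8, 41.5, 32.7 and 98.9 in basal-like lines against 134, 2264, 1033 and 194 in claudin-low lines. Matrix proteases and their inhibitors had a median of −1.25 over 15 genes, −3.47 in lane 1 and 1.77 in lane 2. In that list MMP7, or matrilysin, a protease of epithelial cells, passed without HCC1395 in the direction of higher in basal-like lines, at 251, 1202 and 959 and 27.3 in HCC1395, against 3.55, 2.32, 1.26 and 45.9.

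Basal keratins had the largest median difference of the lists, 7.13 over 8 tested genes, all positive. The groups were apart in 5 of them, beside 2.0% of all genes in that direction, and none passed the threshold. KRT5 was 185, 80.6, 30177 and 19612 in the basal-like lines, against 39.6, 10.5, 9.60 and 14.6 in the claudin-low lines (6.70 ± 1.87, limma adjusted p = 0.345). HCC70 and MDA-MB-468 carried most of it, and HCC1395 lay closest to the claudin-low lines. KRT17 was 1326, 19.7, 18695 and 5865, against 327, 1.16, 11.3 and 53.9, which overlapped through HCC1395. KRT5 differed by 10.63 in lane 1 and 4.25 in lane 2, and KRT17 by 9.01 and 1.29. Without HCC1395, KRT6A, KRT6B, KRT14, KRT15 and KRT16 passed and KRT5 did not (adjusted p = 0.0551).

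Keratins of simple epithelia were less distinct. KRT8 was 17571, 5947 and 21374 in HCC1143, HCC70 and MDA-MB-468 and 212 in HCC1395, against 6067, 121, 4006 and 1350 in the claudin-low lines, and KRT18 was 8993, 2607 and 7945 and 310 in HCC1395, against 2255, 1052, 2225 and 2712. KRT18 was therefore retained in all claudin-low lines, and HCC1395 had the least KRT18 of the 8. KRT8 was retained in HCC38, MDA-MB-231 and MDA-MB-436, whereas MDA-MB-157 had the least KRT8 of the 8, at 121. The annotated spans of KRT8 and KRT18 overlap on opposite strands, so the 2 genes may share some reads, which was not measured. KRT19 was 5748, 11598 and 21684 and 15.2 in HCC1395, against 716, 16.3, 79.5 and 16, and it passed with KRT7 without HCC1395 (adjusted p = 0.0300 and 0.0260). All 3 differences were lower in lane 2, where KRT8 differed by −1.11, KRT18 by −0.22 and KRT19 by 0.52, against 4.62, 2.10 and 9.56 in lane 1.

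Kallikreins, S100 proteins and secreted epithelial genes had a median of 5.33 over 16 genes, of which 15 were positive, and none passed with all lines. KLK5, a trypsin-like protease of squamous epithelium, was 704, 2694 and 7903 in HCC1143, HCC70 and MDA-MB-468 and 1.01 in HCC1395, against 4.73, 2.32, 5.03 and 7.98 in the claudin-low lines. S100A14 was 1290, 8279 and 5631 and 3.03 in HCC1395, against 8.27, 4.65, 3.77 and 12. Kallikreins KLK6, KLK8 and KLK10 had the same pattern, with HCC1395 at or below 2.02. Without HCC1395 the median was 6.80 and KLK5, KLK6, KLK8, KLK10, SERPINB5, S100A14 and S100P passed, where 0.93% of all genes passed as higher.

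**Figure D4:**
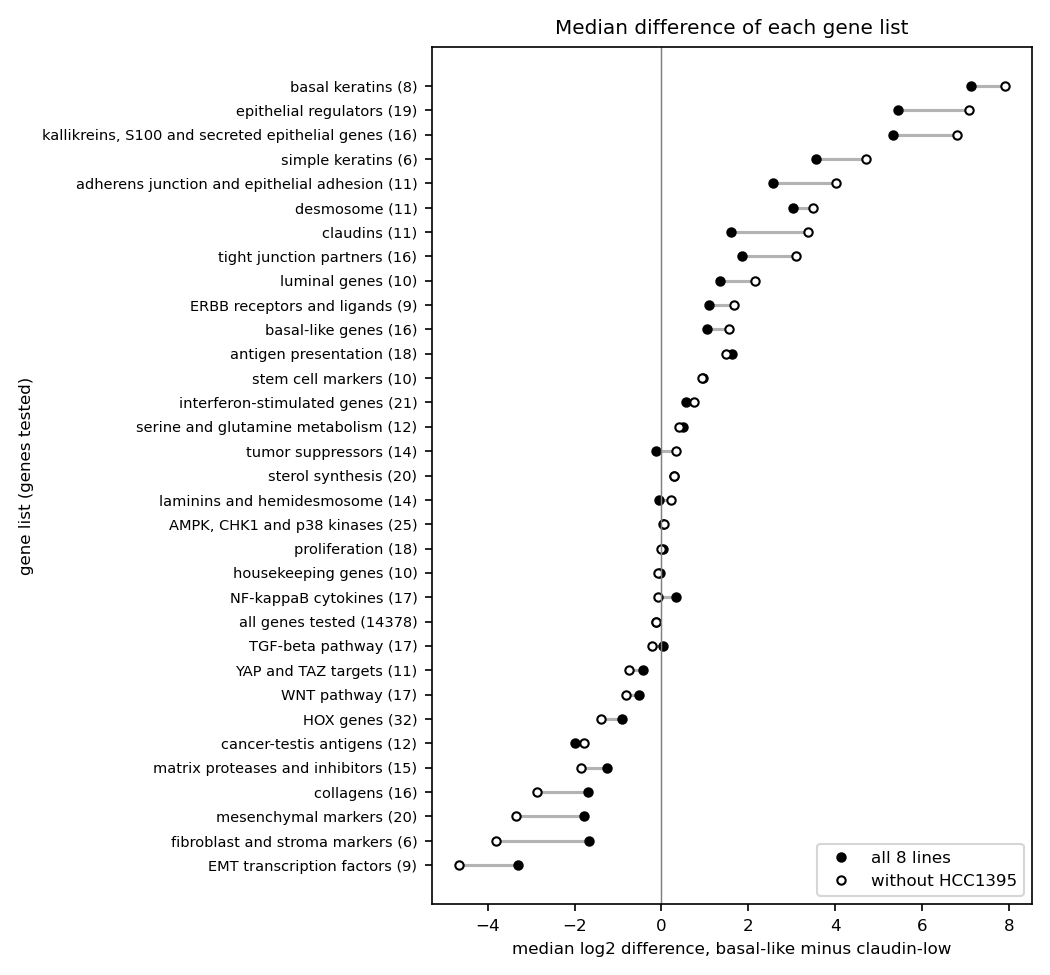
Median log2 difference, basal-like minus claudin-low, of each gene list with all 8 lines (filled circles) and without HCC1395 (open circles), with the number of genes tested in brackets. Basal keratins lie highest at 7.13, EMT transcription factors lowest at −3.31, and the junction lists move away from 0 without HCC1395.

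Growth factor receptors and lineage markers had smaller medians than the epithelial regulators and keratins, and none of their members passed with all lines. The medians were 1.11 for ERBB receptors and ligands, 1.04 for other basal-like genes, 1.35 for luminal genes and 0.95 for stem cell markers. That of the other basal-like genes was 3.19 in lane 1 and −0.09 in lane 2, so its sign differed between lanes. The ERBB, luminal and stem cell medians were positive in both lanes. EGFR was 3403, 1805, 4161 and 37278 in the basal-like lines, against 322, 2027, 2491 and 1448 in the claudin-low lines, with MDA-MB-468 standing apart from the other lines and HCC1395 inside the claudin-low range (2.16 ± 0.96, limma adjusted p = 0.491). EGFR differed by 4.26 in lane 1 and 3.19 in lane 2. ERBB2 was 1203, 513, 1180 and 912 against 690, 682, 807 and 643 (0.36 ± 0.35, adjusted p = 0.747). ERBB3 was 1698, 2114 and 1373 in HCC1143, HCC70 and MDA-MB-468 and 8.09 in HCC1395, against 17.7, 12.8, 40.2 and 28.9, and passed without HCC1395 (6.16, adjusted p = 0.00211), as did the ligand TGFA. NOTCH3, a receptor chosen here after its values were seen, separated the groups at 16334, 1390, 12499 and 7397 against 193, 1151, 42.7 and 245 (adjusted p = 0.195, and 0.0256 without HCC1395).

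Luminal genes varied between lines, and the hormone receptors among them were low. GATA3 was 85.5, 513 and 524 in HCC1143, HCC70 and MDA-MB-468 and 13.1 in HCC1395, against 98.1, 5.81, 70.4 and 8.98 in the claudin-low lines (limma adjusted p = 0.584), a difference of 4.95 in lane 1 and −0.21 in lane 2. ESR1 was 66.9, 47.9 and 68.9 and 0 in HCC1395, against 0, 1.16, 12.6 and 2.0 (adjusted p = 0.574). PGR, the progesterone receptor, was listed at 0 in all basal-like lines and at 37.8 and 91.5 in HCC38 and MDA-MB-157. MUC1 and AGR2 passed without HCC1395.

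The stem cell markers used to sort breast cancer cells had opposite outliers. CD24 was 4310, 7042 and 16043 in HCC1143, HCC70 and MDA-MB-468 and 54.6 in HCC1395, against 28.4, 660, 62.8 and 274 in the claudin-low lines (4.07 ± 1.74, limma adjusted p = 0.479), and it passed without HCC1395 (adjusted p = 0.0332). It differed by 6.15 in lane 1 and 5.34 in lane 2. CD44 was 7681, 7024, 8874 and 12572, against 671, 20160, 12421 and 12849, and HCC38 alone was low (0.37 ± 0.94, limma adjusted p = 0.921, −0.23 in lane 1 and 3.54 in lane 2). ALDH1A3, an aldehyde dehydrogenase, was 8993, 1742, 2949 and 6199, against 131, 703, 264 and 6887, where MDA-MB-436 lay with the basal-like lines.

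Antigen presentation genes were all of one sign, as 18 of 18 tested genes had a positive difference at a median of 1.62, while none passed with or without HCC1395. HLA-E was 3390, 3339, 5564 and 3596 in the basal-like lines, against 1377, 2900, 2180 and 849 in the claudin-low lines (1.23 ± 0.40, limma adjusted p = 0.374). TAPBP, or tapasin, was 2324, 2541, 3850 and 1718 against 376, 1308, 1305 and 1242 (1.40 ± 0.45, adjusted p = 0.374). PSMB8 and PSMB9, overlapping genes of the immunoproteasome, were apart too, with PSMB8 at 1047 to 1838 against 2.36 in HCC38 and 541 to 736 in the other claudin-low lines. The groups of these 4 genes are apart with HCC1395 counted as basal-like, so its place with those lines follows from their choice. Of all genes, 2.0% were apart in that direction. B2M, the light chain of class I molecules, was 20706, 26364, 47582 and 8165 against 4238, 32.5, 9413 and 30751, and MDA-MB-157 stood far below the rest. The list median was 0.43 in lane 1 and 3.06 in lane 2, where HCC38 was the only claudin-low line.

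Lists of general cell functions had medians near that of all genes. Proliferation genes had a median of 0.04, AMPK, CHK1 and p38 kinases 0.04, TGF-beta pathway 0.05, sterol synthesis 0.28, serine and glutamine metabolism 0.49 and tumor suppressors −0.14, with no member past the threshold with or without HCC1395. CHEK1, the kinase CHK1, was 1008, 1122, 957 and 2146 in the basal-like lines, against 851, 588, 1318 and 719 in the claudin-low lines (0.57 ± 0.38, limma adjusted p = 0.638). The AMPK catalytic subunit PRKAA1 differed by 0.07 ± 0.36 (adjusted p = 0.968) and the p38 kinase MAPK14 by −0.12 ± 0.37 (adjusted p = 0.938). PRKAB1, a regulatory subunit of AMPK, was the only 1 of the 25 tested genes of the kinase list whose groups were apart. Over all genes 3.19% were apart in that direction. PRKAB1 was 404, 217, 324 and 318 in basal-like lines against 722, 466, 608 and 889 in claudin-low lines (limma adjusted p = 0.390). SREBF1, which encodes a factor for lipid synthesis genes, was apart in the other direction, at 1321, 1289, 1446 and 2187 against 92.2, 671, 734 and 988 (adjusted p = 0.420). It was the only 1 of 20 sterol synthesis genes that was apart, beside 2.0% of all genes in that direction. Interferon-stimulated genes had a median of 0.57, −1.51 in lane 1 and 3.51 in lane 2, and NF-kappaB cytokines 0.33, −3.85 and 2.88, so their sign differed between lanes. The same was true of several other lists, with lane 1 and lane 2 medians of −0.66 and 0.92 for the TGF-beta pathway, 0.59 and −0.80 for tumor suppressors, 0.24 and −0.30 for proliferation, 0.19 and −0.16 for the kinases and 0.80 and −0.06 for serine and glutamine metabolism. Laminins and hemidesmosome genes had a median of −0.06 (−0.82 in lane 1 and 1.37 in lane 2), YAP and TAZ targets −0.42 (−0.57 and 0.62), housekeeping genes −0.03 (−0.39 and 0.56) and cancer-testis antigens −2.0 (−2.27 and 2.61). The WNT pathway had a median of −0.53, and without HCC1395 its ligand WNT7B passed as higher and its transcription factor LEF1 as lower.

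The HOXD cluster on chromosome 2 was at or near 0 in all basal-like lines, HCC1395 included. HOX genes encode homeobox factors that pattern the body axis. HOXD8 was at 0 in the 4 basal-like lines, against 194, 186, 37.7 and 82.8 in the claudin-low lines (limma adjusted p = 0.0501). HOXD4 was at 0 in the same lines, against 125, 26.7, 84.2 and 156 (adjusted p = 0.0675). Against the floor of 3 reads per library the claudin-low means were at least 42.5-fold and 33.3-fold higher, and both genes passed without HCC1395 (adjusted p = 0.0159 and 0.0218). HOXD3, whose span covers HOXD4, was 0, 0, 0 and 1.62 against 26.0, 4.65, 85.4 and 42.9, and HOXD1 was 0 throughout against 10.6, 18.6, 38.9 and 4.99. At the other end HOXD13 was 415 in HCC38, 90.6 in MDA-MB-157 and 7.98 in MDA-MB-436 but 0 in MDA-MB-231, and 0 in all basal-like lines.

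**Figure D5:**
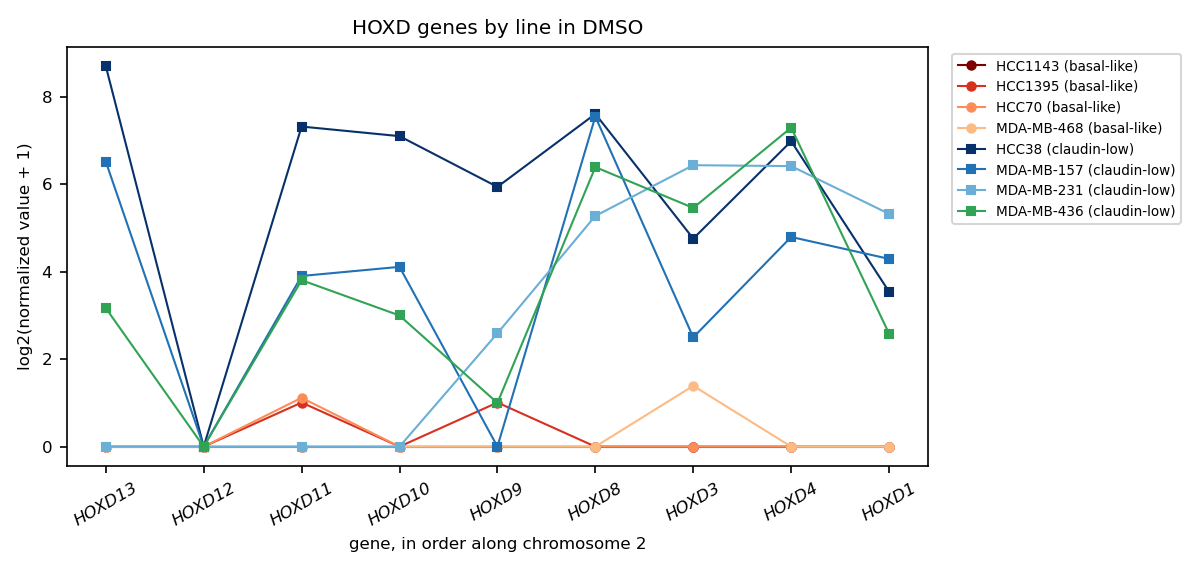
log2(value + 1) of the HOXD genes in their order along chromosome 2 in each DMSO library, with basal-like lines as circles in red to orange and claudin-low lines as squares in blue and green. The basal-like lines stay at or near 0 over the whole cluster, and all claudin-low lines have values above 0 from HOXD8 to HOXD1, with HCC38 reaching 415 at HOXD13.

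Over all 32 tested HOX genes, those of the HOXD cluster included, the median difference was −0.92 and 23 were negative, beside 8188 of 14378 over all genes. The list median was −0.08 in lane 1 and −3.09 in lane 2. HOXB9 was 0, 5.06, 5.84 and 1.62 in basal-like lines, against 324, 13.9, 343 and 30.9 in claudin-low lines (limma adjusted p = 0.323), so that its groups were apart in the same direction as the HOXD genes. HOXC10 ran the other way, at 438, 385, 501 and 581 against 82.7, 275, 104 and 34.9 (adjusted p = 0.314).

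HCC1395 was not claudin-low in every gene. Among the 134 genes that were higher without it, HCC1395 lay nearer the claudin-low mean for 125 and inside the claudin-low range for 84. Among the 84 lower genes it lay nearer the claudin-low mean for 51 and inside the range for 25, and in 55 it was on the basal-like side of that range. Its values of ARMCX1, EMB, ADAM23, EYA4, ZFHX4 and the HOXD genes, and its KRT14, fall on the basal-like side. Most of these were named because all basal-like values, its own included, lay apart from the claudin-low values. Their side therefore follows from that choice. The 134 and 84 genes were selected without HCC1395, and their counts describe its position and are no test.

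Single lines differed from all others in genes of their own, described without a test. MDA-MB-468 had almost no transcript over a run of neighbouring genes on chromosome 16, with MGRN1, a ubiquitin ligase (4666494 to 4740975), at 0 against 585 to 1671 in the other 7 lines. GLYR1 and UBN1 were at 4.05 each, against 1762 to 3374 and 2112 to 4400, and NUDT16L1, ANKS3, ZNF500 and ROGDI, which lie between MGRN1 and GLYR1, were at most 1.62. In the TLT library of MDA-MB-468, MGRN1, GLYR1 and UBN1 were at most 3.64. HCC1395 lacked ACTR3, a subunit of the Arp2/3 actin complex, at 6.07 against 3400 to 5833, and its neighbour SLC35F5 at 1.01 against 609 to 1158. MDA-MB-157 lacked SERPINH1, the collagen chaperone HSP47, at 1.16 against 1570 to 6050, though it had the most SPARC. HCC38 had little S100A6, at 27.2 against 7549 to 35083, and MDA-MB-436 had the cancer-testis antigen MAGEA4 at 19425 against at most 58.1, in a gene family whose members share reads.

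Tumor suppressor genes were also low in single lines rather than in a subtype. RB1 was 22.7 in MDA-MB-468 and 804 to 2114 in the other basal-like lines, against 189 in MDA-MB-436 and 810 to 3191 in the other claudin-low lines. CDKN2A was 8.09 in HCC1395 and 3.77 in MDA-MB-231, one line of each subtype, and its neighbours CDKN2B and MTAP were low in the same lines, at 2.02 and 8.09 in HCC1395 and 2.51 and 22.6 in MDA-MB-231. BRCA1 was lowest in HCC1395, at 434, and highest in HCC38, at 3028. SMAD4 in MDA-MB-468 (11.9) and NF2 in MDA-MB-436 (9.98) were each also the lowest of the 8 lines.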

How the data were processed

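RNA was sequenced from oligo(dT)-selected, unstranded TruSeq libraries with 50-cycle single reads. Per the paper's methods, the authors aligned with MapSplice and quantified genes with RSEM. The submitters' processing notes name hg19. The deposited unit is a signal scaled to the upper quartile of each library, not counts. Their own test, DESeq2 1.4.5 on other counts, was not used here. Of 20531 rows, 29 without a gene name (0.0398% of the signal) were left out, and no sample column was unmapped.

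The genes whose 8 DMSO values averaged at least 10 were fitted as log2(value + 1) with limma 3.58.1 (trend and robust) in R 4.3.3, without covariates, at a Benjamini-Hochberg adjusted p under 0.05. Because the values are normalized, the count test foreseen for raw counts was not run. Between 82.9% and 84.5% of values under 60 were whole multiples of 1 read (tolerance 0.01), too few to recover counts. The fit was tested on simulated data.

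Named genes were the 15 per direction with the largest differences among called genes without overlap, filled by smallest p among genes without overlap, plus 34 fixed genes, up to 4 called members of each of the 34 lists (none with all lines) and, per line, the 5 genes farthest from the other 7 libraries. Other genes were chosen after their values were seen. Some genes are not reported here. Members and lists were chosen with earlier results of these data known. Positions are from GENCODE on GRCh37, with names also matched through RefSeq. Tables and figures used Python 3.11.15, numpy 2.4.6, pandas 2.3.3 and matplotlib 3.10.9. Scaling, pseudocount, filter, moderation, lane, the TLT libraries and each line left out were varied.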

Additional observations from a re-analysis of the deposited data

Results flagged for a closer look

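Of 126 groups of 4 lines examined (63 genes in each subtype), 18 had 1 line standing apart from the other lines of its group by Dixon's criterion. Chance alone meets that criterion in about 1 of 20 groups of independent, normally distributed values. The same lines recur in the groups of every gene and some values are at 0. The 18 groups therefore cannot be set against that rate. HCC1395 accounted for 11 of the 18. It was low among basal-like lines for CLDN4 (16.2), CLDN7 (8.09), EPCAM (14.2), OCLN (20.2), ESRP1 (7.08), GRHL2 (0), OVOL2 (2.02), ESR1 (0), DDR1 (1099) and BRCA1 (434), and it was high for ZEB2 (525, with 1.62 to 3.72 in the other basal-like lines).

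Among the remaining basal-like values, LYPD3 was high in HCC70 (2338, against 305 to 387 in the others), SYT7 was low in HCC1143 (177.5, against 905 to 1065), and TRIM68 was high in MDA-MB-468 (33.2, with the others at 0). ARMCX1 at 0.81 in MDA-MB-468 corresponds to 1 read, with the others at 0.

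Among claudin-low lines, CLDN7 was high in MDA-MB-231 (107, against 5.91 to 6.97), CD44 was low in HCC38 (671), and CDKN2A was low in MDA-MB-231 (3.77, against 1092 to 2017).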

How the results depend on the processing

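The 9 calls rest on few lines. Of 20 alternatives, counts outside 1.5 times the 9 were 0 with a pseudocount of 0.1, 0 with a mean of at least 100, 16 without a filter, 25 without trend and robust moderation, 0 with a lane term, 99 in lane 1 alone (16 higher, 83 lower) and 0 in lane 2 alone. At an adjusted p under 0.10 there were 22 genes (7 higher, 15 lower), and under 0.01 there were 0. Without a filter 14 of the 16 were lower, and without moderation 4 were higher and 21 lower. With 1 line left out in turn the count ranged from 0 to 218 (0 to 134 higher, 0 to 84 lower), being 7 without HCC1143, 3 without HCC70, 3 without MDA-MB-468, 1 without HCC38, 0 without MDA-MB-157, 10 without MDA-MB-231 and 0 without MDA-MB-436. Where 0 passed with lines of both lanes, 975 to 1408 genes had an unadjusted p under 0.05 in limma. Median-of-ratios and quantile scaling moved the median of all genes to -0.02. The TLT libraries gave 9 calls, 8 of them shared. Over the 63 named genes and these alternatives, 1080 differences kept their sign and side of the threshold, 53 passed that had not, 91 no longer passed and 27 changed sign, all 27 in uncalled genes. In lane 2 alone the difference was -0.15 for OCLN, 1.89 for SNAI2, -1.11 for KRT8, -0.22 for KRT18 and -0.21 for GATA3. In lane 1 alone it was -0.23 for CD44, 2.46 for CDKN2A, 0.61 for BRCA1, -0.33 for PRKAA1 and 0.19 for MAPK14. With a lane term it was -0.027 for PRKAA1 and 0.027 for MAPK14, and in the TLT libraries 0.018 for MAPK14. With 1 line left out the differences ranged from -0.065 to 1.55 for KRT18, -0.74 to 0.89 for CD44, -1.83 to 0.39 for RB1, -2.33 to 1.42 for CDKN2A, -0.47 to 0.25 for BRCA1, -0.24 to 0.23 for PRKAA1 and -0.34 to 0.18 for MAPK14. The causes of these shifts were not tested. No paired analysis was possible because the lines of both subtypes are different lines without replicate numbers.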

Other observations

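Genes on chromosome X were among those with lower values in basal-like lines. Of 492 tested genes on it, 36 had every basal-like value below every claudin-low value (7.32%, beside 3.19% over all genes), and 2 had the reverse. Chromosome 4 came next with 34 of 514 genes (6.61%). Other chromosomes were uneven in the direction of higher values in basal-like lines, where 2.0% of all genes were apart. The counts there were 39 of 624 genes on chromosome 16, 29 of 452 on chromosome 14 and 23 of 342 on chromosome 22. Without HCC1395, 14 of the 84 lower calls were on chromosome X (16.7%, where 3.44% of tested genes lay), among them ARMCX1, WBP5, NAP1L3, MAGEE1 and MAGED1. Several lie close together. ARMCX3, next to ARMCX1, was 30.7, 648, 409 and 0.81 in HCC1143, HCC1395, HCC70 and MDA-MB-468, against 1491, 1135, 1056 and 2605 in HCC38, in MDA-MB-157, in MDA-MB-231 and in MDA-MB-436. WBP5 was 0.93, 435, 3.5 and 4.05 against 1357, 1043, 1489 and 1801, and BEX1 was at 0 in all basal-like lines, against 123, 252, 1.37 and 441. ARMCX2 broke the pattern, with 1.16 in MDA-MB-157.

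Zinc finger genes of chromosome 19 were low together in HCC1143. ZNF845 and ZNF320 were at 0 there, against at least 209 and at least 135 in the other 7 lines, and ZNF83 was at 0.93 and ZNF28 at 2.60, each far below the other lines. ZNF611 and ZNF525, in the same region, were 178 and 218 in HCC1143. Many of these genes are similar in sequence, so reads may be split among them.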
